A study of Mus musculus with 2 samples.

Results

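The genes described here are 39 imprinted genes of the mouse, coding and noncoding, taken by name from GENCODE M21 on mm10 out of 31358 protein-coding and long noncoding genes of chromosomes 1 to 19 and X. They belong to 18 imprinted clusters or stand-alone loci, and all 39 were found in the annotation. DNase-seq, which maps chromatin open to cutting by DNase I, was run on gastrocnemius, a calf muscle, from female B6CASTF1/J mice aged 10 days, the hybrid offspring of C57BL/6J and CAST/EiJ. There were 2 libraries, labelled biological replicates 1 and 2 of the same group, and the label of each names 3 females, so tissue may have been pooled. No treatment, genotype or tissue was contrasted, so no test was made: each value below is that of 1 library, and the difference between the libraries is the only measure of error. The read depth of the libraries is not given in the sources used here.

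Imprinted genes are transcribed mainly from the copy inherited from one parent. Their clusters are governed by imprinting control regions, CpG-rich stretches that carry DNA methylation on one parental copy only and that the zinc-finger protein ZFP57 helps to keep methylated. At H19 and Igf2, the insulator protein CTCF binds the unmethylated maternal control region and separates Igf2 from enhancers that lie beyond H19. Many of the genes set fetal and early postnatal growth, and several are known from skeletal muscle, where H19, Igf2, Dlk1 and Meg3 are active in young tissue. An open site in these files can come from either parental copy or from both, because the deposited lists do not separate alleles. In whole tissue, fewer cells with an open site and a less open site in each cell cannot be told apart either.

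Sequences of peaks at the control regions are shown because they hold the letters by which ZFP57, CTCF and YY1 are known. They come from 16 windows laid by textbook position: 1 kb to each side of the transcription start sites (TSS) of 13 genes (Peg3, Mest, Snrpn, Kcnq1ot1, Airn, Peg10, Plagl1, Nnat, Impact, Zrsr1, Grb10, Gnas and Inpp5f), 1 to 5 kb upstream of H19, 10 to 16 kb upstream of Meg3 and 25 to 35 kb upstream of Rasgrf1. The words searched on both strands and marked here were TGCCGC for ZFP57, GNGGNGGCA for CTCF sites of the H19 type and GCCATNTT for YY1. A CTCF core (AGNNGGCGC), a long CTCF consensus and, for comparison, an E-box (CAGCTG) were also searched but are not marked. Each sequence is the plus strand of the C57BL/6J reference (GRCm38, the assembly of mm10), written 5′ to 3′, and the CAST/EiJ copy was not read. Capitals mark matches to the ZFP57, H19-type CTCF and YY1 words, reverse complements included, and bases in a UTR were left off.

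The Peg3 peak holds 2 ZFP57 words and 2 YY1 words in 240 bases, and was the tallest control-region peak with such words. The 2 Inpp5f peaks lie at a promoter inside the gene, which starts the short imprinted transcript.
Peg3 intragenic promoter peak, chr7:6729461-6729700: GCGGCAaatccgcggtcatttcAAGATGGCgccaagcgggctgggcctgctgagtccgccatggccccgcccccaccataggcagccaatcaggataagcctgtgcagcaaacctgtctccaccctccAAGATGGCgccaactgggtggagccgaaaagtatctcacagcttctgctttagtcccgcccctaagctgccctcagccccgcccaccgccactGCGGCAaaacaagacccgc
Inpp5f inner promoter peak, chr7:128688301-128688488: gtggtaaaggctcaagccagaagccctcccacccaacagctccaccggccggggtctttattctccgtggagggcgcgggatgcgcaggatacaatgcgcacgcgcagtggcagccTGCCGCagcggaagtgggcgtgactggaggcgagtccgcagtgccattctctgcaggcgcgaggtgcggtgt
Inpp5f inner promoter, upstream peak, chr7:128687921-128688080: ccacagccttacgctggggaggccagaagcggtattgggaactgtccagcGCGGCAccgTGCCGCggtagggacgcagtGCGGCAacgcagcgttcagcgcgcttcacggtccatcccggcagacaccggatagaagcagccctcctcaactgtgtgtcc
The peaks at Mest and Snrpn sit over the promoters of their paternally expressed transcripts. The printed part holds 1 ZFP57 word at Mest and 2 at Snrpn.
Mest promoter peak, chr6:30737921-30738049: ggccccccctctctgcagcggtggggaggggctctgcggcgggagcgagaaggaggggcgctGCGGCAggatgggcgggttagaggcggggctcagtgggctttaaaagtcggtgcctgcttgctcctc
Snrpn promoter peak, chr7:60005112-60005240: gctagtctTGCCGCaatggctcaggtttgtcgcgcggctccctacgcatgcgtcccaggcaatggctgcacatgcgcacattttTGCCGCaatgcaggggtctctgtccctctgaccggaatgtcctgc
The 3 peaks upstream of H19 lie in its control region, 2168, 2628 and 3678 bp from the 5′-most TSS. Peak A holds 1 CTCF word directly beside a ZFP57 word and a further ZFP57 word, peak B holds 1 CTCF word alone, and peak C holds 2 ZFP57 words, 1 on each strand.
H19 upstream peak A, chr7:142580221-142580400: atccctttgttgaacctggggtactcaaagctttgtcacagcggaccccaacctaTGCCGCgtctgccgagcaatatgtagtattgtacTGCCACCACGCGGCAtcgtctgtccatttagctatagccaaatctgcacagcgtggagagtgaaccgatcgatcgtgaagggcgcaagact
H19 upstream peak B, chr7:142580681-142580860: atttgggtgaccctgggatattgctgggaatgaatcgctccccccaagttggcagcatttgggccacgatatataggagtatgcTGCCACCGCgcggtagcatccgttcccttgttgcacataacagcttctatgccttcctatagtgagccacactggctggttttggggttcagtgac
H19 upstream peak C, chr7:142581721-142581920: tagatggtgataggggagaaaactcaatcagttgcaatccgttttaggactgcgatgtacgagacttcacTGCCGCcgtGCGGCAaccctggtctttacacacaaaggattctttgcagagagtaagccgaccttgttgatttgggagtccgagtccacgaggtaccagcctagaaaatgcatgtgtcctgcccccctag
The Meg3 peak lies in the intergenic control region, 12673 bp upstream of the gene, and holds 3 ZFP57 words in 185 bases. It was added to the set after its values were seen.
Meg3 upstream peak, chr12:109528236-109528420: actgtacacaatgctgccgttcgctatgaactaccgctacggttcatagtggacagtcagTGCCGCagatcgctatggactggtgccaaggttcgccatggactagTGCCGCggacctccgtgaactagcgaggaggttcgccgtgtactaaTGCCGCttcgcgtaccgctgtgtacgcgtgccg

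A larger share of the peaks of the control windows held the ZFP57 word than of the promoter peaks of the other imprinted genes. The windows at promoters span every TSS of their genes, so they also hold peaks away from the control region, as at the main promoter of Inpp5f. Counted in the central 150 bp of each peak, so that width does not enter, 18 of 53 peaks (34.0%) of the control windows had the word in replicate 1 and 8 of 18 (44.4%) in replicate 2. The promoter peaks of the other imprinted genes had it in 2 of 43 (4.65%) and 3 of 15 (20%), and all promoter peaks of the genome in 12% of 32480 and 13% of 17977. CpG density was close among the sets in replicate 1, with a median of 6.67 CpG per 100 bp in the control windows, 6 in the other peaks and 6.67 in all promoter peaks. It was 8, 7.33 and 8 in replicate 2. In the same central 150 bp, the CTCF word of the H19 type occurred in 8 of 96 peaks of imprinted genes and control windows in replicate 1 (8.33%, against 7.04% of all promoter peaks) and in 1 of 33 in replicate 2 (3.03%, against 6.66%). YY1 words were in 4 of 96 (4.17%, against 3.53%) and 2 of 33 (6.06%, against 3.72%). Over whole peaks, which were narrower at imprinted genes, H19-type CTCF words were in 9.38% and 6.06%, against 11.0% and 12.9%. YY1 words were in 4.17% and 9.09%, against 5.22% and 7.97%. The order of the sets for these words in replicate 1 thus turned with the stretch searched. In the central 150 bp the CTCF core was in 11.5% and 12.1%, against 8.69% and 7.73%. The long CTCF consensus was in 0 of 96 and 0 of 33 peaks, against 1.29% and 0.94%. The E-box was in 11.5% and 12.1%, against 11.8% and 8.88%. A word match is only a description of the letters in a peak.

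**Figure D1:**
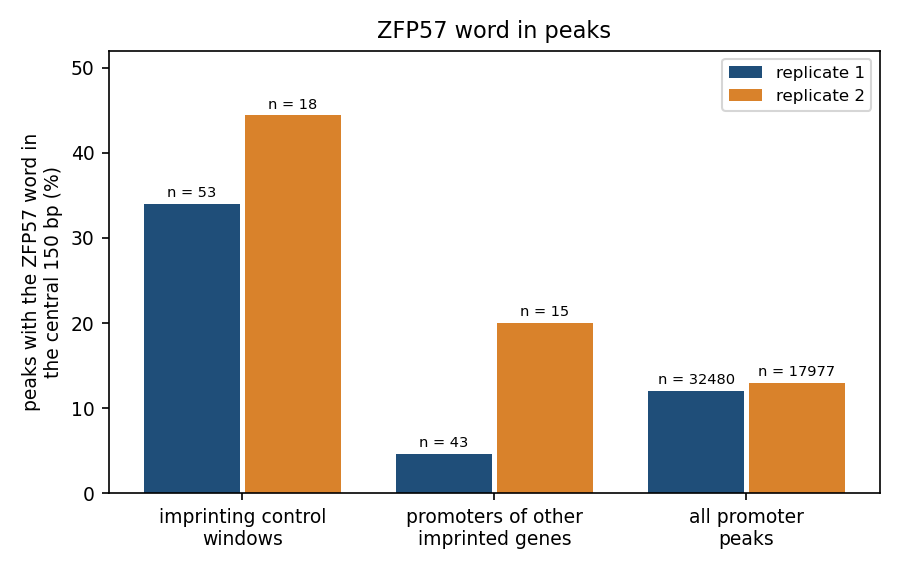
Share of peaks (vertical axis, percent) with the ZFP57 word in their central 150 bp, for peaks in imprinting control windows, promoter peaks of the other imprinted genes and all promoter peaks, with blue bars for replicate 1, orange bars for replicate 2 and the number of peaks above each bar. The control windows reach 34.0% and 44.4%, above the 12% and 13% of all promoter peaks, and the promoters of the other imprinted genes lie at 4.65% and 20%. Control windows at promoters span every TSS of their genes.

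The libraries differ in size, and each count must be read against that. Replicate 1 had 114727 peaks and replicate 2 had 26796 in the list used, the shorter of the deposited lists of each library. Promoter peaks, those within 1 kb of any TSS, made up 28.3% and 67.1%. Of 10 skeletal muscle marker genes, 4 had a promoter peak in replicate 1 and 3 in replicate 2, against 57.3% and 41.4% of all genes. Ckm and Actn3 had one in both libraries, Myod1 and Ryr1 in replicate 1 only and Acta1 in replicate 2 only. Myog, Tnnt3, Mb, Des and Myh4 had none in either. Of 6 neuron marker genes, 6 and 4 had one, and of 4 Schwann cell markers 2 and 1, of 4 endothelial markers 1 and 1, of 5 fibro-adipogenic markers 2 and 3, and of 4 macrophage markers none in either. The part of these cell types in the peaks of imprinted genes was not tested. Heights are the deposited signal values, scaled to read depth by the authors, and are compared below mainly by rank within a library.

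Imprinted genes had a promoter peak more often than the average gene. A promoter peak was present at 32 of 39 imprinted genes in replicate 1, where 57.3% of all genes had one, and at 20 of 39 in replicate 2, where 41.4% had one. Both libraries had one at 19 of 39, against 40.9% of all genes. At 17 of the 39 genes promoter peaks of the libraries overlapped by at least 1 bp, at 16 by 50% of either peak, and at 5 by 50% of both. The share of all genes was not computed for these overlaps, so the counts have no background. When replicate 1 was cut to its tallest peaks, as many as replicate 2 had, 23 of 39 kept one, against 40.2%. The genes have more annotated starts than most, a median of 5 TSS against 2, and with a single TSS per gene the count in both libraries was 17 of 39, against 37.9% of all genes. Among protein-coding genes alone it was 18 of 35, against 51.4%, so in that subset the share equalled the background.

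The share depended on the CpG content around the start. Genes were put in 3 equal classes by the observed-to-expected CpG ratio within 500 bp of the 5′-most TSS. In the CpG-rich class, 15 of 15 imprinted genes had a promoter peak in replicate 1 (96.8% of all genes of the class) and 10 of 15 in replicate 2 (84.3%). In the middle class the counts were 15 of 18 (58.0%) and 10 of 18 (34.1%). In the CpG-poor class they were 2 of 6 (17.2%) and 0 of 6 (5.83%). The 2 are Mest and Snrpn, whose tallest peaks lie at other starts than the 5′-most one and hold 17 CpG in 220 bp and 11 in 160 bp.

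Promoter peaks of imprinted genes ranked below the middle of those of all genes, more clearly in replicate 2. For each gene the tallest promoter peak was ranked among those of all genes with one. The median rank was percentile 42.7 in replicate 1 and 26.7 in replicate 2, where all genes have 50 and 49.5. Taking the peak nearest to a TSS instead of the tallest gave 48.1 and 29.3. The median height was 4.49 against 5.62 over all genes in replicate 1, and 1.53 against 2.02 in replicate 2. Ranked among all peaks of a library instead, promoter and distal, the same tallest promoter peaks had a median percentile of 86.5 in replicate 1 and 52.2 in replicate 2. Heights at or above the all-gene median were reached by 10 of the 32 genes with a peak in replicate 1 and by 4 of 20 in replicate 2, namely Ube3a, Inpp5f, Commd1 and Zrsr1.

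**Figure D2:**
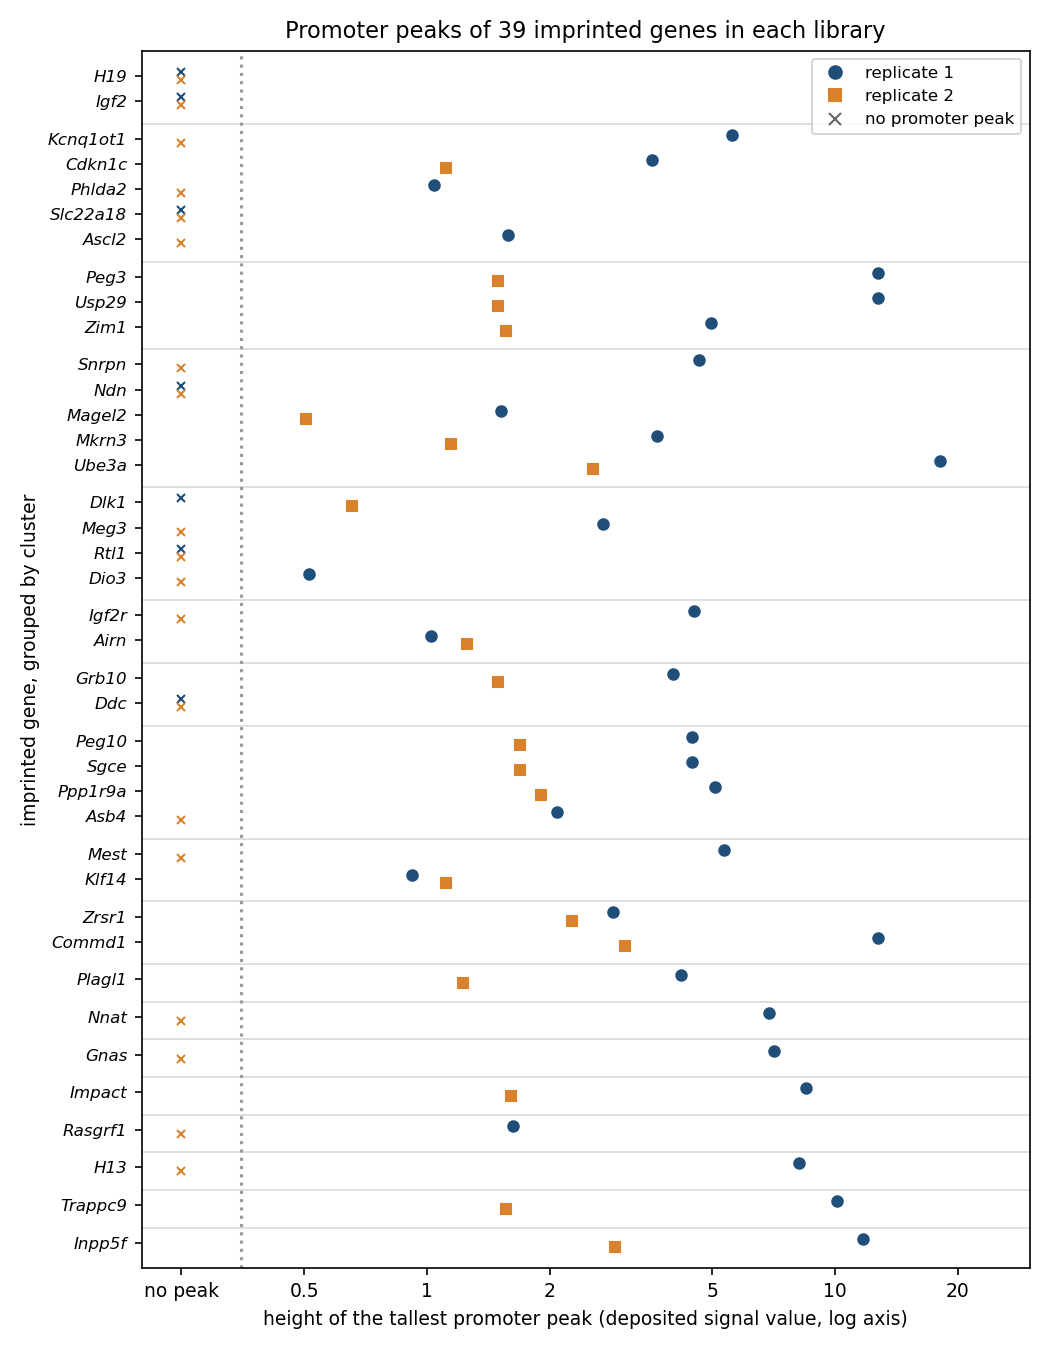
Height of the tallest promoter peak (horizontal log axis, deposited signal value) of each of the 39 imprinted genes, grouped by cluster, with blue circles for replicate 1, orange squares for replicate 2 and crosses at the left for genes without a promoter peak. Of the 39 genes, 19 have both symbols, and Ube3a is the tallest in replicate 1 at 18.09. H19, Igf2, Slc22a18, Ndn, Rtl1 and Ddc have no promoter peak in the list used of either library.

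The genes seen in replicate 1 only were not all low ones. All genes with a promoter peak in replicate 1 were split into 4 bins of equal size by its height, and the share with a promoter peak in replicate 2 was 29.0%, 68.8%, 90.4% and 97.2% from the lowest to the highest bin. Of the imprinted genes it was 3 of 8, 9 of 14, 2 of 5 and 5 of 5. The third bin, heights of 5.62 to 11.2, is where the imprinted genes departed most from the rest: Impact and Trappc9 had a peak in replicate 2, and Nnat, Gnas and H13 did not. With 5 genes in that bin the gap rests on 3 genes. In the longer list of replicate 2, Gnas and H13 had promoter peaks of up to 2.23 and 1.747, and Nnat had none. The median height of all peaks in the shorter list of replicate 2 was 1.48. The share of all genes was not computed with that list.

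**Figure D3:**
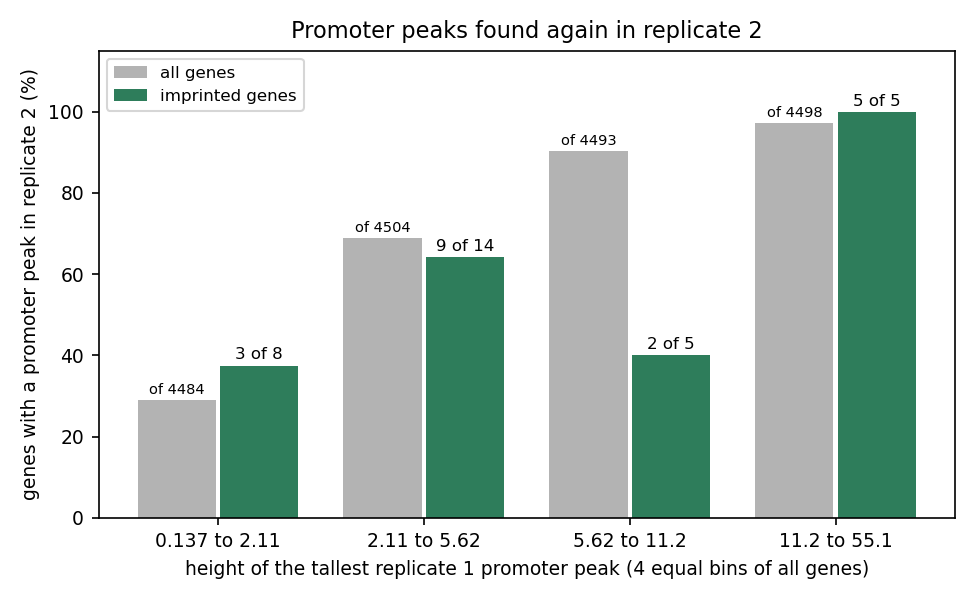
Share of genes (vertical axis, percent) with a promoter peak in replicate 2, in 4 equal bins of all genes by the height of their tallest replicate 1 promoter peak, with grey bars for all genes and green bars for imprinted genes. The imprinted genes lie at 2 of 5 in the third bin, where all genes reach 90.4%, and at 5 of 5 in the highest.

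All 16 control windows held a peak in replicate 1, and 8 of 16 did in replicate 2: those at Peg3, Airn, Grb10, Peg10, Zrsr1, Plagl1, Impact and Inpp5f. The 13 genes with a window at the promoter thus had a peak at 13 of 13 and 8 of 13, where 57.3% and 41.4% of all genes had a promoter peak; no such share was computed for the 3 upstream windows. The windows without a peak in replicate 2 were those at Kcnq1ot1, Snrpn, Mest, Nnat and Gnas and the 3 upstream windows of H19, Meg3 and Rasgrf1. In the longer list of replicate 2, 12 of 16 windows held a peak. The H19 window had 1 of 1.20. Snrpn had promoter peaks up to a height of 0.515, Mest up to 1.18 and Gnas up to 2.23. Kcnq1ot1, Nnat, Meg3 and Rasgrf1 had none. By the parental copy that textbooks give as active, 12 of 14 maternally expressed genes had a promoter peak in replicate 1 and 7 of 14 in replicate 2. The counts were 16 of 20 and 11 of 20 for paternally expressed genes. They were 32 of 39 and 20 of 39 for the whole set, next to 57.3% and 41.4% of all genes. Some imprints are limited to certain tissues, as that of Ube3a, among the 14, is to neurons. Which copies are active in this muscle was not tested.

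Among the growth factor genes, Igf2 (chr7:142650766-142666816) is the fetal growth factor expressed from the paternal copy. In the lists used it had no promoter peak in either library at any of its 9 TSS. The longer list of replicate 2 had 1, of 0.976, and that of replicate 1 had none. In replicate 2 the Igf2 windows held 167 FDR intervals and 3 footprints, and in replicate 1 they held 0 of each. FDR intervals are the deposited bases or short stretches with a false discovery rate of at most 0.05. Footprints are stretches protected from cutting within open chromatin. H19 (chr7:142575529-142578143), the maternally expressed noncoding RNA, also lacked a promoter peak in both lists used. Its windows held 92 FDR intervals and 3 footprints in replicate 1 and 0 of each in replicate 2. The longer list of replicate 1 had 1 H19 promoter peak, of 0.764, and that of replicate 2 had none. In the lists used, the peaks of this locus lay around the genes instead. In replicate 1 the 3 control-region peaks shown above as A, B and C had heights of 1.575, 1.724 and 1.42, and replicate 2 had no peak and 1 footprint in that window, with 1 peak of 1.20 in its longer list.

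Beyond H19, on the side away from Igf2 where its enhancers are known to lie, replicate 1 had several distal peaks. They lay 13188, 14508, 15082, 26418 and 38468 bp downstream of the nearest TSS. Their heights were 1.593, 2.924, 0.716, 4.32 and 2.411. Replicate 2 had none of them. It had 2 low peaks 2838 and 3798 bp downstream, of 0.579 and 0.557, which replicate 1 lacked. No distal peak within 50 kb of H19 or Igf2 was shared, which here means that 50% or more of the replicate 1 peak or of the replicate 2 peak was covered by the other.

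Igf2r (chr17:12682406-12769664), the receptor that clears the Igf2 protein, had a promoter peak of 4.517 in replicate 1, 76 bp upstream of its TSS. In replicate 2 it had no peak, no footprint and no FDR interval there. Its start is in the CpG-rich class. Airn (chr17:12741311-12860136), the antisense noncoding RNA that starts inside Igf2r at the control region, had 1.02 in replicate 1 and 1.254 in replicate 2. These were percentiles 11.9 and 15.2. The 2 Airn peaks did not overlap, with centres 8 and 102 bp downstream of a TSS.

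Grb10 (chr11:11930508-12038683), an adaptor that dampens insulin and growth factor signalling, had peaks at 4 promoters in one library or the other. At the upstream promoter with its TSS at 12037401, heights were 0.477 in replicate 1 and 1.362 in replicate 2; at the CpG-rich inner promoter, which is the control region, they were 4.016 and 1.49. Replicate 2 was thus the higher library at one promoter and the lower at the other. Its neighbour Ddc, which makes dopamine and is imprinted in heart, had no promoter peak in either, while 2 of its distal peaks were shared.

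Of 14 genes of the insulin-like growth factor axis, 11 had a promoter peak in replicate 1, 8 in replicate 2 and 8 in both, against 57.3%, 41.4% and 40.9% of all genes. Igf1r, the receptor that carries the Igf2 signal, had 13.43 and 2.048, percentiles 82.2 and 51.1, Irs2, its adaptor, had 16.62 and 2.348, and Igf1, Igfbp1 and Igfbp6 had none. The list was chosen by function.

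In the Kcnq1ot1 cluster on chromosome 7, 1 of 5 genes, Cdkn1c, had a promoter peak in both libraries and 3 in replicate 1 only. Kcnq1ot1 (chr7:143203458-143296549), a noncoding RNA transcribed from the paternal control region that silences its neighbours, had a peak of 5.591 in replicate 1, 72 bp upstream of its TSS, and neither peak, footprint nor FDR interval in replicate 2. Cdkn1c (chr7:143458339-143461050), a cyclin-dependent kinase inhibitor that stops the cell cycle as muscle cells differentiate, had 3.55 in replicate 1 and 1.115 in replicate 2. These promoter peaks of Cdkn1c did not overlap. Of its 14 distal peaks in replicate 1, 4 were shared. Those 5450 and 3030 bp upstream of Cdkn1c had heights of 4.756 and 4.463 in replicate 1 and 2.594 and 1.908 in replicate 2, in each library above the Cdkn1c promoter peak. The tallest distal peak, 11.36 at 30690 bp downstream of the nearest TSS, was in replicate 1 alone.

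Phlda2, a limiter of placental growth, had 1.038 and Ascl2, a placental transcription factor, 1.581 in replicate 1, and neither had a promoter peak in replicate 2. Slc22a18, a transporter, had none in either. A distal peak 49306 bp downstream of the Ascl2 TSS was the tallest distal peak of the set in replicate 2, at 3.559, and had 3.491 in replicate 1. Its percentile in the whole list of replicate 2 was 95.5, and the next highest distal peak of the set stood at 86.1.

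The Peg3 domain had promoter peaks at all 3 of its genes in both libraries. Peg3 (chr7:6703892-6730431), a zinc-finger gene that marks muscle stem cells among other cells, and Usp29, a ubiquitin protease gene, start next to each other and share their peaks. The intragenic peak shown above was the tallest in replicate 1 at 12.73, and at 1.479 it nearly equalled the tallest of replicate 2, 1.49 over the shared start. In replicate 1 the peak over the start had 9.189. Peaks continued into Peg3, 1778, 2538 and 2888 bp from the nearest TSS, with 9.822, 6.904 and 5.776 in replicate 1, and replicate 2 had 1.19 and 1.147 at 1617 and 2026 bp. Zim1, a neighbouring zinc-finger gene expressed from the maternal copy, had 4.97 and 1.565.

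**Figure D4:**
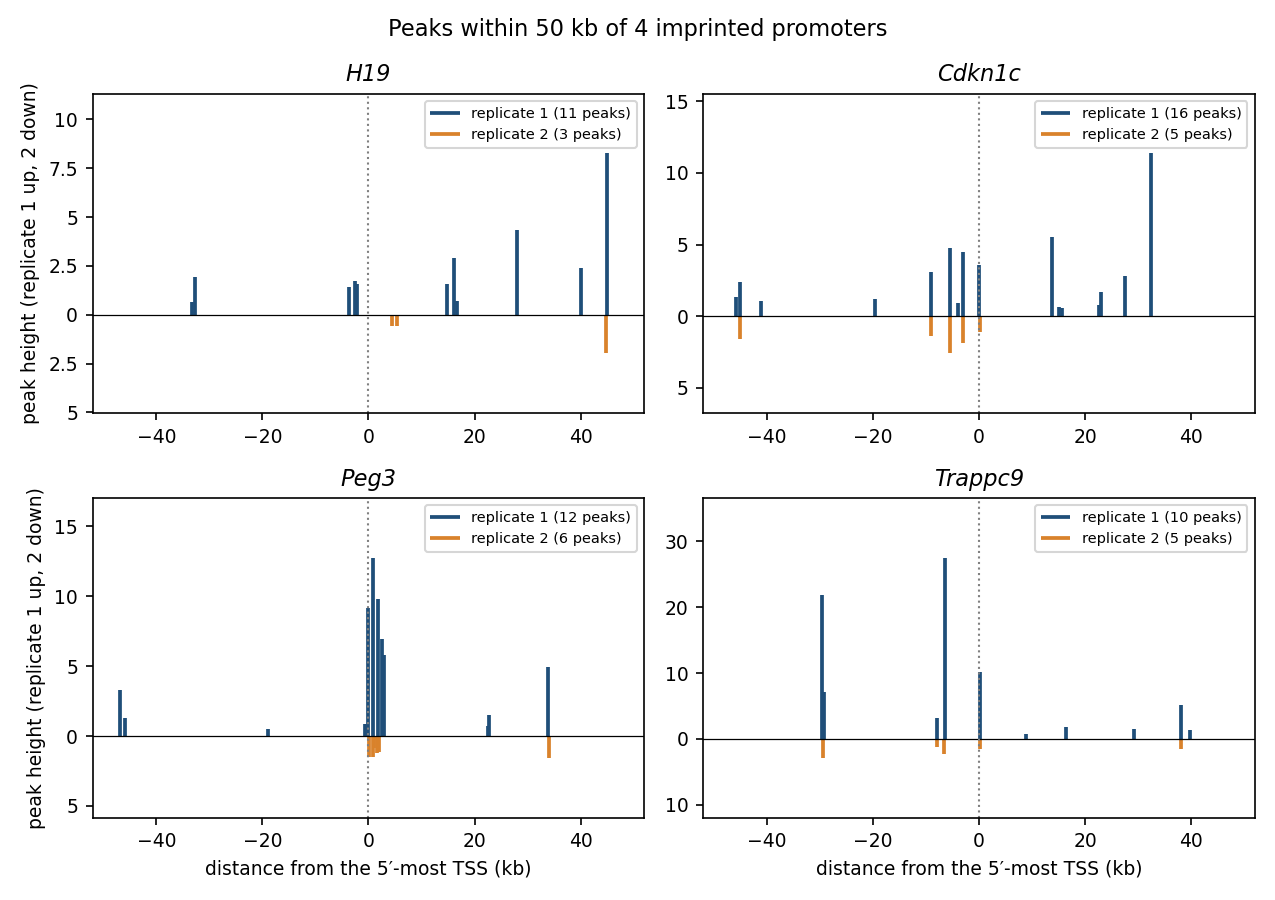
Heights of all peaks within 50 kb of the 5′-most TSS (horizontal axis, kb, positive downstream) of H19, Cdkn1c, Peg3 and Trappc9, with replicate 1 drawn upward in blue and replicate 2 downward in orange (vertical axis, deposited signal value). H19 has no peak at its TSS, Peg3 has a row of peaks from its start to 2900 bp inside, and the tallest Trappc9 peak, 27.46 in replicate 1, lies 6456 bp upstream.

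In the Snrpn domain on chromosome 7, Ube3a (chr7:59228750-59311536), a ubiquitin ligase that is imprinted in neurons only, had the tallest promoter peak of the 39 genes in replicate 1, at 18.09. In replicate 2 it had 2.551, below Commd1 at 3.055 and Inpp5f at 2.884, and its percentiles were 91.8 and 70.3. It was also the 1 gene of the set with no distal peak in either library. Snrpn, a splicing protein gene whose promoter is the control region, had 4.648 in replicate 1 and no peak in replicate 2, where 179 FDR intervals fell in its windows. Magel2, a regulator of protein transport, had 1.522 and 0.504, at peaks that did not overlap. The peak of replicate 2 was shared with a lower peak of replicate 1, of 0.549. Mkrn3, a brake on puberty, had 3.67 and 1.147.

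Ndn, which encodes the growth suppressor necdin, had no promoter peak by its GENCODE start at 62346569. RefSeq places the start at 62348277, and there replicate 1 had a peak of 6.79 at chr7:62348201-62348380 and replicate 2 a peak of 0.997 at chr7:62348301-62348620. RefSeq starts were matched for 31 of the 39 genes. With them, 27 of 31 had a promoter peak in replicate 1, 14 in replicate 2 and 14 in both. No share of all genes was computed with RefSeq starts. Ndn is the 1 gene that these starts added in both libraries.

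The Dlk1-Dio3 domain on chromosome 12 had no gene with a promoter peak in both libraries. Dlk1 (chr12:109452823-109463336), a membrane protein of the Notch ligand family that is high in growing muscle, had no peak at its main promoter in either. Replicate 2 had a low peak of 0.654 at an internal TSS, with 643 FDR intervals and 6 footprints in its windows, where replicate 1 had 0 of each. Meg3 (chr12:109541001-109571726), a maternally expressed noncoding RNA, was the opposite case: 5 promoter peaks up to 2.703, 1357 FDR intervals and 21 footprints in replicate 1, and none of any in replicate 2. Its control-region peak, shown above, had 0.943 in replicate 1 alone. Dio3, which inactivates thyroid hormone, had 0.513 in replicate 1 only, and Rtl1, a retrotransposon-derived gene, had none. A distal peak 14902 bp upstream of Dlk1 was shared, with 1.665 and 1.908.

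Farther along the same domain the libraries differed at the Mir379 cluster, a row of miRNA hairpins processed from a maternally expressed transcript. From 5 kb before to 10 kb after the Mir379 hairpin (chr12:109709060-109709125), which holds 14 RefSeq hairpins, replicate 2 had 16 peaks and replicate 1 had 3. The 16 were low, from 0.161 to 0.418 with a median of 0.263, and the highest of them stood at percentile 3.86 of the peaks of its library. They covered 3007 bp between 109705429 and 109716054. The 3 of replicate 1 had 1.784, 9.07 and 3.383 and covered 540 bp, and the highest, at chr12:109712061-109712220, stood at percentile 94.7. Of these 3 peaks, 2 overlapped a peak of replicate 2, among them the highest, where replicate 2 had 0.343. The whole domain held 44 peaks in replicate 1 and 22 in replicate 2, so 16 of the 22 were in this window. The window was chosen after its values were seen.

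**Figure D5:**
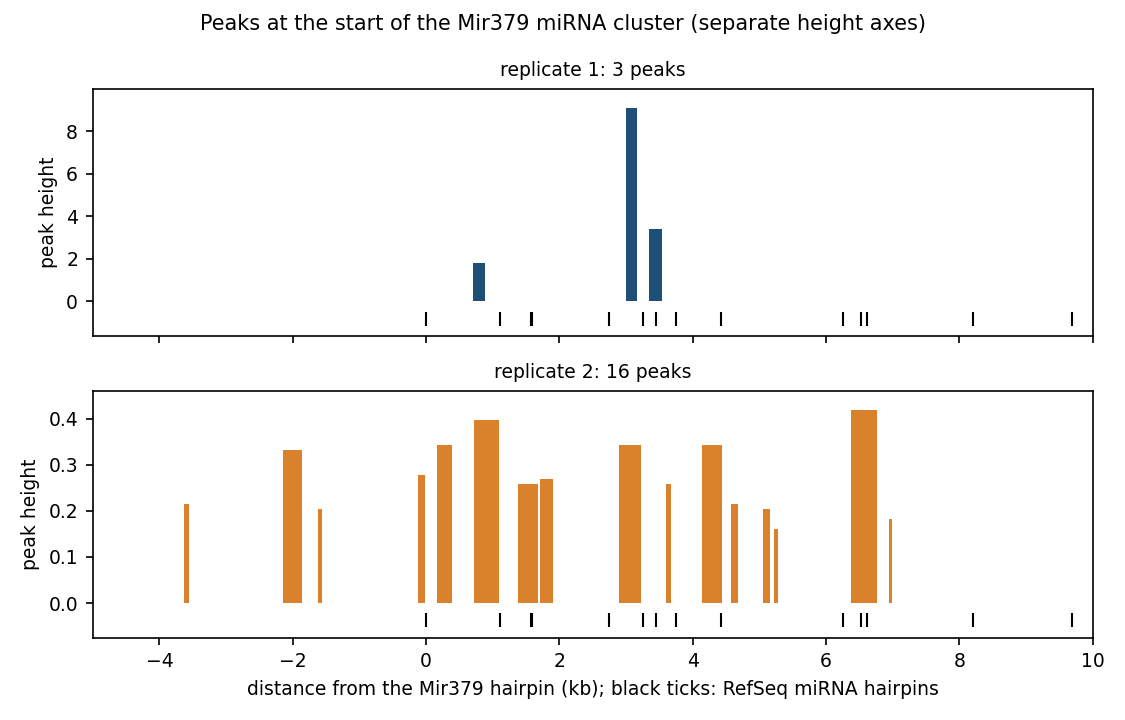
Peaks at the start of the Mir379 cluster, with distance from the Mir379 hairpin (horizontal axis, kb), deposited height (vertical axis, a separate scale for each library), bar width as peak width and black ticks for RefSeq hairpins. Replicate 2 shows 16 peaks of at most 0.418 across the hairpins, and replicate 1 shows 3 peaks of up to 9.07, of which 2 overlap a replicate 2 peak.

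In the Peg10 cluster on chromosome 6, Peg10, a retrotransposon-derived gene, and Sgce, which encodes a sarcoglycan of the muscle membrane complex, start back to back and share their peaks. The tallest had 4.457 in replicate 1 and 1.694 in replicate 2, at peaks that did not overlap. A lower pair that did overlap had 0.406 and 0.922. FDR intervals covered 96.4% of the Peg10 window in replicate 1 and 79.4% in replicate 2, and 37.6% and 27.3% of the Sgce windows, which include further starts. A shared distal peak 1934 bp inside Peg10 was higher than the promoter in replicate 1, at 10.78, and lower in replicate 2, at 1.319. Ppp1r9a, a cytoskeletal protein gene, had its tallest peak at an inner TSS, 5.078 and 1.908, against 2.1 and 1.372 at its main start. Asb4, a ubiquitin ligase subunit gene, had 2.088 in replicate 1 only.

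Mest (chr6:30723547-30748465), a paternally expressed growth gene of the hydrolase family, had 4 peaks in replicate 1, all at the promoter at 30738050 and up to 5.352. In replicate 2 it had no peak but 446 FDR intervals and 10 footprints. Its neighbour Klf14, a transcription factor gene, had 0.919 and 1.115, percentiles 9.94 and 10.3. Zrsr1, a splicing factor gene lying inside Commd1, had 2.852 and 2.262 at a peak that also lies at an inner TSS of Commd1. Commd1, a regulator of copper export, had 12.73 and 3.055 at its main promoter, percentiles 80.2 and 82.5, the highest pair among the 39 genes. The 2 Commd1 peaks overlapped by less than 50%.

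Plagl1, a zinc-finger transcription factor gene, had 4.201 and 1.222 at its imprinted promoter, at peaks that were shared. Impact, a regulator of translation, had 8.467 and 1.608. Nnat, a membrane protein gene named for neurons, had 6.898 in replicate 1, and no peak, footprint or FDR interval in replicate 2. Gnas (chr2:174284320-174346744), which encodes the stimulatory G protein subunit, has several alternative promoters. In replicate 1 the main promoter at 174330006 had 7.083 and the promoter upstream of it at 174327570 had 2.458. The one at 174297859 had 0.549, the most upstream at 174284320 had 1.14 and an inner one at 174344650 had 1.868. In the list used, replicate 2 had no peak at any of them, and its windows held 3 footprints and 251 FDR intervals. Its longer list had Gnas promoter peaks of up to 2.23.

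Rasgrf1, a Ras activator of neurons, had 1.623 in replicate 1 only, and its upstream window a peak of 2.291, 34158 bp before the TSS, in the same library. H13, a signal peptide peptidase gene, had 8.169 in replicate 1 and none in replicate 2, where its windows held 329 FDR intervals and 3 footprints. Trappc9 (chr15:72589620-73061204), a vesicle tethering gene, had 10.13 and 1.565. The tallest of all distal peaks of the set lay 6456 bp upstream of it, at 27.46 in replicate 1, percentile 99.9 of that list, and 2.348 in replicate 2. Inpp5f, a phosphoinositide phosphatase gene, had 11.72 and 2.884 at its main promoter and 8.395 and 1.072 at the inner, imprinted promoter shown above. A further peak 1882 bp from an inner TSS had 7.99 and 2.594.

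Distal peaks, those within 50 kb of a TSS of the set and over 1 kb from any TSS, numbered 197 in replicate 1 and 33 in replicate 2, and 20 were shared. At least 1 lay near 38 of 39 genes in replicate 1, where 86.1% of all genes had one, and near 21 of 39 in replicate 2, against 37.5%. A shared one lay near 15 of 39, against 32.9%. The median number per gene was 7 in replicate 1 and 1 in replicate 2, against 4 and 0 over all genes. Neighbours of a cluster share such peaks and more TSS widen the region searched, so genes are not independent counts.

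Footprints and FDR intervals reached more genes than peaks did. At least 1 footprint lay in the promoter windows of 33 of 39 genes in replicate 1, against 60.8% of all genes, and of 25 of 39 in replicate 2, against 47.1%. At least 1 FDR interval lay in those of 34 of 39, against 63.8%, and of 28 of 39, against 50.4%. In all, the windows held 372 and 174 footprints. The genes of replicate 2 with FDR intervals but no promoter peak in the list used were Igf2, Phlda2, Ascl2, Snrpn, Asb4, Mest, Gnas and H13, with between 3 intervals at Ascl2 and 446 at Mest.

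Genes known to be imprinted but outside the 39 gave a similar count. Of 35, 27 had a promoter peak in replicate 1, 19 in replicate 2 and 18 in both, against 57.3%, 41.4% and 40.9% of all genes. Their median percentiles, 24.1 and 28.3, also lay below those of all genes. Rian, the noncoding RNA between Meg3 and the Mir379 cluster, had one in replicate 2 only, at 0.257. The genes that set and keep imprints were open more often: 18 of 20 had a promoter peak in each library, the same 18 in both. Among them Zfp57 had 2.297 and 0.922, Trim28, its co-repressor, 10.48 and 4.674, Ctcf 9.547 and 2.905, Yy1 24.26 and 2.176, and Dnmt1, the maintenance methyltransferase, 17.87 and 2.659. Dnmt3l and Dppa3, which act in germ cells and the early embryo, had none.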

How the data were processed

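DNase-seq of gastrocnemius gave 2 libraries of 1 group. Per the file headers and labels, the authors made each library's files from its own filtered alignments on mm10; aligner, callers and versions were not given in the sources used here. Peak heights are a deposited signal scaled to read depth by the authors. Deposited intervals carry a false discovery rate (FDR) of at most 0.05, which is a p-value that the authors adjusted. Deposited footprints all carry the score 0.01, so they could not be ranked. The shorter peak list of each library (114727 and 26796 peaks on chromosomes 1 to 19 and X) was used and the longer one was an alternative.

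Promoter peaks overlapped 1 kb to either side of any GENCODE M21 TSS of a gene, and distal peaks lay within 50 kb outside every promoter window. Peaks were shared when at least 50% of either overlapped. Word shares used pysam 0.24.0, and values pandas 2.3.3 and Python 3.11.15. Interval code was tested on simulated data and against bedtools. With a single group no test was possible. The 39 genes, the lists and the textbook windows were chosen with earlier results of these data known; RefSeq starts and the Mir379 window were added after the values were seen. All 39 genes are described. Sequences were at most 8 control-window peaks, tallest first, that kept a word outside UTR bases, plus the Meg3 peak. A peak qualified with a CTCF word (H19 type or long consensus), a YY1 word or at least 2 ZFP57 words. The Commd1 promoter peak, also named by that rule, lies mostly over its UTR and was not printed.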

Additional observations from a re-analysis of the deposited data

How the results depend on the processing

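Of 75 values under other settings, 65 kept to the limits used (1.5 times the main value for a count) and 10 moved. The count of 19 genes with a promoter peak in both libraries was 17 when the peaks themselves had to overlap by 1 bp. It was 16 with 50% of either and 5 with 50% of both, and no share of all genes was computed for these overlaps. Leaving out a library gave 20 without replicate 1 and 32 without replicate 2. Distal peaks of replicate 1 (197) were 342 in the longer list, 36 among its tallest peaks and 119 within 20 kb, and those of replicate 2 (33) were 87 in the longer list. Shared distal peaks (20) were 44 with the longer lists and 13 with the tallest peaks. Footprints of replicate 2 (174) were 91 when only those inside a peak counted, and its FDR intervals (12708) were 7244 at an FDR of at most 0.001. The longer list, the fewer peaks and the narrower distance act on these counts by construction. No paired analysis was possible because the libraries form a single group. The read depth is not given in the sources used here, and a gene without a peak in the shorter list of replicate 2 may still be open. Peaks of that list had heights from 0.1179, with a median of 1.48. Gnas and H13, with 2.23 and 1.747 in the longer list alone, stood above that median. Igf2, Phlda2, Snrpn, Asb4 and Mest, also in the longer list alone, stood below it. Height alone thus did not set which peaks the shorter list holds.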

Other observations

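The low peaks of replicate 2 in the Dlk1-Dio3 domain were not confined to the miRNA hairpins. Inside Dlk1 replicate 2 had 3 further distal peaks, 2115 and 1662 bp before and 1110 bp after the internal TSS, with heights of 0.343, 0.386 and 0.386, and replicate 1 had no peak in the gene. With the 2 low peaks downstream of H19, at 0.579 and 0.557, these lie at or below percentile 5.99 of the peaks of that library. Igf2 had FDR intervals in replicate 2 only.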
